A study of Mus musculus with 6 samples.

Results

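Adipocyte genes were followed across 6 arrays of mouse heart RNA. The set held 10 genes read by 12 probes, of 20659 named genes and 39429 non-control probes on the array. Its members were Adipoq, Lep, Retn and Cfd, which encode secreted proteins of fat, Plin1 and Cidec of the lipid droplet surface, Fabp4 and Pparg of fatty acid handling and adipocyte differentiation, and Ucp1 and Cidea of brown fat. The genes were chosen from values measured on these same arrays, namely the processed signal and its range within a group against the difference between groups. Their group differences are therefore given as a description, with the standard error of the whole-table fit and without a test.

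The sleep fragmented (SF) group was C57BL/6N mice whose sleep had been disrupted over 5 weeks (3 arrays), and the control group was left undisturbed (3 arrays). All were females aged 21 weeks, no allele or transgene is named for either group, and total RNA came from the isolated ventricles. The labels do not say that the samples of a group came from separate animals, so the spread between arrays may be technical. The comparison asks how chronic sleep disruption changes gene expression in the heart.

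White adipocytes store triglyceride in a single large droplet and secrete hormones such as adiponectin and leptin, whereas brown adipocytes burn fat for heat through the mitochondrial uncoupling protein encoded by Ucp1. Both arise under the nuclear receptor PPAR gamma, which binds DNA with RXR, and under C/EBP factors. The heart is surrounded by fat depots and takes up much of its fuel as fatty acids, and some genes of fat are also active elsewhere in the heart, as Fabp4 is in its capillaries.

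The sequences shown are those of 4 members whose array values differ in kind. Adipoq and Ucp1 are the hormone gene and the brown fat gene with wide ranges between arrays, Plin1 is a dimmer droplet gene, and Lep was above background on no array. Each run is the 250 bases before a transcript start of RefSeq, build GRCm38.p6, written 5′ to 3′ on the gene's strand, and capitals mark a match to a searched motif. The windows are chr16:23146286-23146535 on the plus strand for Adipoq, chr6:29059971-29060220 on the plus strand for Lep, chr7:79732777-79733026 on the minus strand for Plin1 and chr8:83290098-83290347 on the plus strand for Ucp1.
Adipoq: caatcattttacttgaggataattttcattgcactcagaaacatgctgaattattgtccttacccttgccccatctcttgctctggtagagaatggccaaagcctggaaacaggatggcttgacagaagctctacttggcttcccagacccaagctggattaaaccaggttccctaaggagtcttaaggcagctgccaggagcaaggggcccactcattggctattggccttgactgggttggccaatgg
Lep: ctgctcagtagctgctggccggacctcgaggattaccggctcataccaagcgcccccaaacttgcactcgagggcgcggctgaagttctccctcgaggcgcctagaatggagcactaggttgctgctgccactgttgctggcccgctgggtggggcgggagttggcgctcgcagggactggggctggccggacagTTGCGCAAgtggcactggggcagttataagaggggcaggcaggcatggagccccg
Plin1: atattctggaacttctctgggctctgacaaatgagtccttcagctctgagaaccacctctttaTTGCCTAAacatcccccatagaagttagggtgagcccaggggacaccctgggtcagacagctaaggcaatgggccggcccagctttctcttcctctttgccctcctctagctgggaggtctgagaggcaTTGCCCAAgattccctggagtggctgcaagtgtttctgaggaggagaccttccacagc
Ucp1: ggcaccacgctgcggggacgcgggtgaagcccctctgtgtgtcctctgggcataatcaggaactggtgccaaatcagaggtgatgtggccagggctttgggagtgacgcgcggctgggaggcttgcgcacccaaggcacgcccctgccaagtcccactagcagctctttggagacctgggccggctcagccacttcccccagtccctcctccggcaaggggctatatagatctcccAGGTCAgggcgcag

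Both strands of these windows were searched for AGGTCA, the half-site of nuclear receptors, for TTGCNNAA, a C/EBP site, for TATAAA, known as the TATA box, and for the PPAR/RXR direct repeat 1, each of whose arms overlaps the half-site. The table held a promoter for 8 of the 10 members. The Ucp1 window held the half-site, starting at position -14 from the transcript start, and the Lep window held the C/EBP site at position -55. The Plin1 window held the C/EBP site at 2 places, and no searched motif was found in the Adipoq window. Among 32851 mouse windows of the same length, 14.0% held the half-site, 9.56% the C/EBP site, 12.4% the TATA box and 0.338% the direct repeat, which was found in 0 members' windows. These matches describe letters only.

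Before the members, the arrays themselves differed. SF array 1 was the dimmest, with a 75th percentile of signal of 126.7, against 211 to 261 on the other 5 arrays, and 59.2% of its probes were well above background, against 67.0% to 72.6% on the others. Array 2 of each group stood apart in the adipocyte genes, as described next, and values without these arrays are given beside the results. Every SF array was read in scan 1 and every control array in scan 2, so scan and group cannot be told apart. In the file headers, SF and control arrays of the same number, 1 to 3, shared a barcode, so sample number and barcode cannot be told apart. The ventricular muscle genes Myl2, Myl3 and Myh6, for contractile proteins, were well above background on all 6 arrays. After the filter on dim probes (a probe stayed if each of the 3 arrays of 1 group or of both read it well above background), 25228 probes were tested by limma. At a Benjamini-Hochberg adjusted p under 0.05, 0 of them (0%) differed between SF and control, the smallest adjusted p being 0.532. At an unadjusted limma p under 0.05, 685 probes (2.72%) did, a count that lay between 428 (without SF array 1) and 2972 (without control array 3) when 1 array was left out. In all, 6 of the 10 members (Adipoq, Cfd, Cidea, Fabp4, Pparg and Retn) passed the filter, and 0 of these 6 were among the 685. Other fits called between 0 and 111 probes, as set out in the closing section.

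Signals below are the deposited processed signals in arbitrary linear units, not scaled between arrays. They do not compare probes with each other. Between arrays they also carry each array's brightness, whose 75th percentile ran from 126.7 to 261.4. Differences and ranges are log2 values after each array's 75th percentile of signal was subtracted. Group means of a member include signals not well above background. Among the secreted proteins, Adipoq encodes adiponectin, the hormone of fat cells. It had signals of 19.5, 1613 and 75.4 on SF arrays 1, 2 and 3, against 32.2, 949.8 and 124 on control arrays 1, 2 and 3. The signal on SF array 1 was not well above background. Array 2 was by far the highest in both groups, array 1 the lowest in both, and the groups overlapped. After scaling, the highest SF array was at least 43.0-fold above the lowest and the highest control array 30.1-fold above the lowest. The difference of group means was 0.18 ± 1.48 (log2 SF minus control, SE, n = 3 each), within a range of 5.51 among SF arrays and 4.91 among controls. Without SF array 2 it was -1.46, without control array 2 it was 1.44, and without both it was -0.19.

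Cfd, for adipsin (complement factor D), which fat cells secrete, followed the same order. Its signals were 46.2, 4346 and 193 on the SF arrays, against 55.9, 2275 and 294 on the controls, all well above background. Array 2 again stood far above the rest in each group and the groups overlapped. The range was 51.6-fold among SF arrays and 41.6-fold among controls, and the difference of means was 0.42 ± 1.56 (log2, SE, n = 3 each). It was -1.25 without SF array 2, 1.77 without control array 2 and 0.09 without both.

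Retn, for resistin, a hormone of mouse white fat, had a narrower range. Its brighter probe gave 33.3, 356 and 55.3 on the SF arrays, against 57.8, 246 and 76.3 on the controls. Array 2 was the highest in both groups, by 5.88-fold over the lowest SF array and 4.34-fold over the lowest control, and the groups overlapped. The difference of means was 0.16 ± 0.73 (log2, SE, n = 3 each), and it was -0.69 without SF array 2 and 0.75 without control array 2. A second Retn probe was above background on array 2 alone in each group, with 108 on SF array 2 and 74.9 on control array 2. Lep, for leptin, had signals of 5.18, 4.90 and 5.63 on the SF arrays, against 5.17, 3.80 and 5.36 on the controls, not well above background on any. No fold or order is given for it.

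The droplet genes shared the order of Adipoq. Cidec, whose protein fuses lipid droplets, had signals of 9.01, 1894 and 60.6 on the SF arrays, against 5.32, 1303 and 141 on the controls. It was not well above background on array 1 of either group and was highest on array 2 of both, and the groups overlapped. The highest array was at least 50.5-fold above the lowest in the SF group and at least 55.1-fold in the control group. The difference of means was 0.43 ± 2.19 (log2, SE, n = 3 each, from the fit without the filter). It was -1.51 without SF array 2 and 2.25 without control array 2. A second, dimmer Cidec probe was highest on SF array 2 (70.4, against 33.7 on control array 2) but, after scaling, on control array 3 among the controls, so the 2 probes disagreed on the control order.

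Plin1, for perilipin, the main coat protein of the fat cell droplet, had signals of 15.5, 119 and 26.1 on the SF arrays, against 21.3, 60.9 and 48.8 on the controls. It too was not well above background on array 1 of either group. Array 2 was highest in both groups, clearly so for SF and by little over array 3 for control, and the groups overlapped. Its range was at least 4.15-fold among SF arrays and at least 2.57-fold among controls, with a difference of means of 0.27 ± 0.63 (log2, SE, n = 3 each, without the filter). Leaving out SF array 2 made it -0.41 and leaving out control array 2 made it 0.54.

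**Figure D1:**
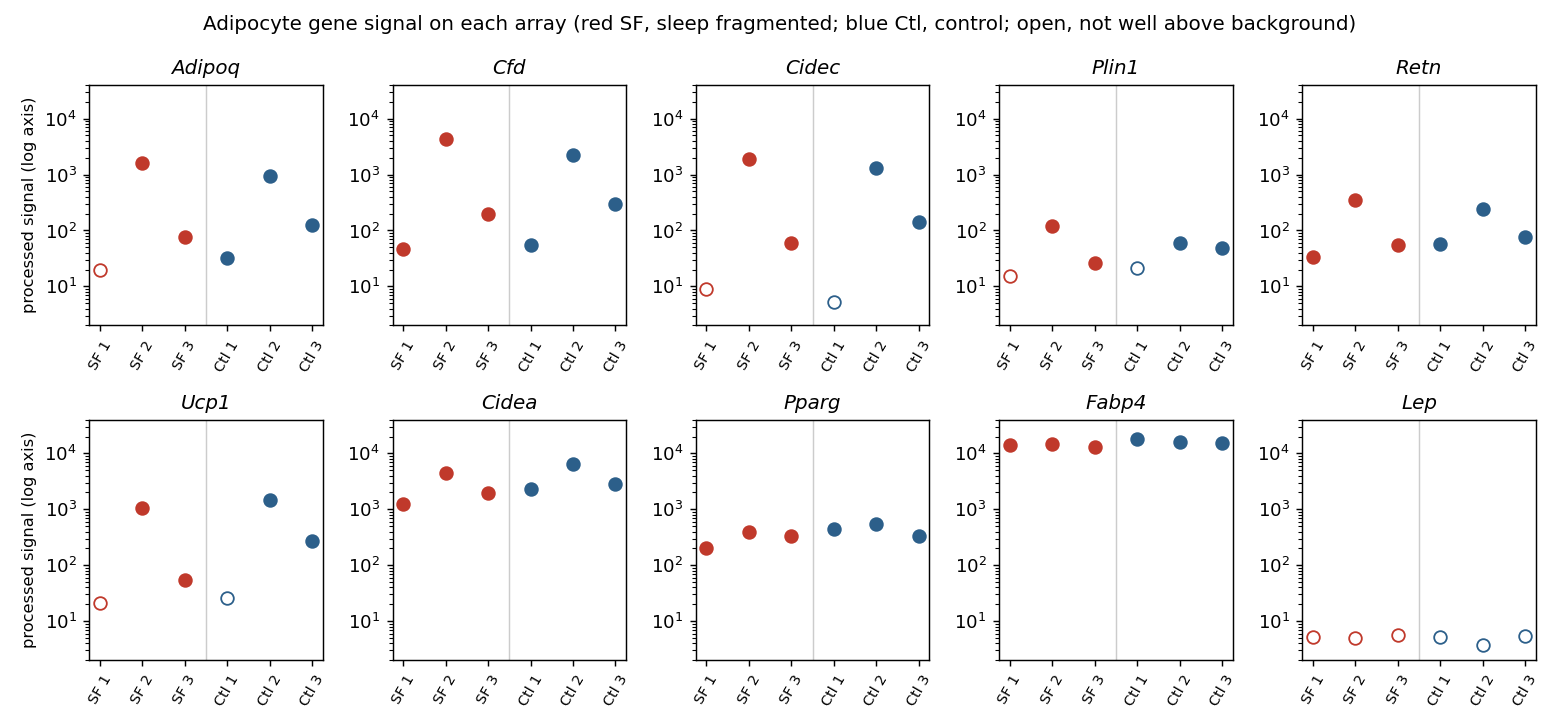
Processed signal (log axis, arbitrary units, unscaled) of the 10 adipocyte genes on each array, with SF arrays 1 to 3 in red on the left, control arrays 1 to 3 in blue on the right, and open circles for signals not well above background. Adipoq, Cfd, Cidec, Retn and Ucp1 peak on array 2 of each group, while Fabp4 lies between 13184 and 18167 on all 6 arrays and Lep is never above background.

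The plot of signals by array separates the steep members from the flat ones. Ucp1, the uncoupling protein gene of brown fat, had signals of 20.9, 1072 and 53.6 on the SF arrays, against 25.9, 1477 and 269 on the controls. Array 1 was not well above background in either group, array 2 was highest in both, and the groups overlapped. The highest array was at least 28.2-fold above the lowest in the SF group and at least 58.2-fold in the control group. The difference of means was -0.63 ± 1.62 (log2, SE, n = 3 each, without the filter), and it was -2.13 without SF array 2 and 0.71 without control array 2. Set against each other at the same array number, SF minus control was -0.31 for number 2 and -2.31 for number 3. For Adipoq these values were 0.91 and -0.70, and for Cfd 1.08 and -0.59, so on array 2 Ucp1 had the opposite sign from both. Whether these unlike values at array 2 differ beyond the spread between arrays was not tested.

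Cidea, a droplet protein of brown fat, had signals of 1263, 4377 and 1942 on the SF arrays, against 2342, 6532 and 2878 on the controls, all well above background. Array 2 was the highest of each group by 2.06-fold over the lowest SF array and 2.85-fold over the lowest control, and the groups overlapped. The difference of means was -0.27 ± 0.40 (log2, SE, n = 3 each). It was -0.60 without SF array 2 and 0.13 without control array 2. On array 1 of each group, where Ucp1 was not above background, Cidea was read well above it.

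Pparg and Fabp4 were nearly level. Pparg, the nuclear receptor of adipocyte differentiation, had signals of 202, 389 and 328 on the SF arrays, against 447, 536 and 333 on the controls. After scaling, array 2 was the highest of each group by 1.08-fold over the lowest SF array and 1.35-fold over the lowest control, and the groups overlapped. The difference of means was -0.14 ± 0.19 (log2, SE, n = 3 each), and it was negative in all 14 alternatives tried.

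Fabp4, the fatty acid binding protein of adipocytes and of capillary endothelium, had signals of 14367, 14932 and 13184 on the SF arrays, against 18167, 15968 and 15057 on the controls. After scaling, SF array 1 was the highest of its group and control array 3 the highest of its group, so Fabp4 was the member in which array 2 led neither group among those above background. The scaled range was 1.81-fold among SF arrays and 1.13-fold among controls. Before scaling, SF array 1 lay between SF arrays 2 and 3, so its lead rests on that array's low 75th percentile (126.7). The difference of means was 0.20 ± 0.25 (log2, SE, n = 3 each). It turned to -0.083 without SF array 1, -0.013 under median scaling, -0.21 with no scaling and -0.051 with array weights, and was positive in the other 10 of 14 alternatives.

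Over the 9 members above background on at least 1 array, array 2 was the highest in both groups for 8. Among the 25180 kept probes with a value on every array, 2461 (9.77%) had array 2 highest in both groups. The within-group range of the wider group was larger than the difference of group means in all 9 members. The SF and control arrays were free of overlap for 0 of the 9, against 1738 of 25180 probes (6.90%). By sign, 6 differences were positive and 3 negative, with a median of 0.18, beside a median of 0.08 over all tested probes. This split turned with the scaling, to 3 positive and 6 negative under median scaling and to 2 positive and 7 negative with no scaling. It was 1 positive and 8 negative without SF array 2, and 8 positive and 1 negative without control array 2. Since the members were chosen for these ranges, nothing is read from those counts. In such bulk samples, fewer fat cells in a sample and less RNA per fat cell cannot be told apart.

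**Figure D2:**
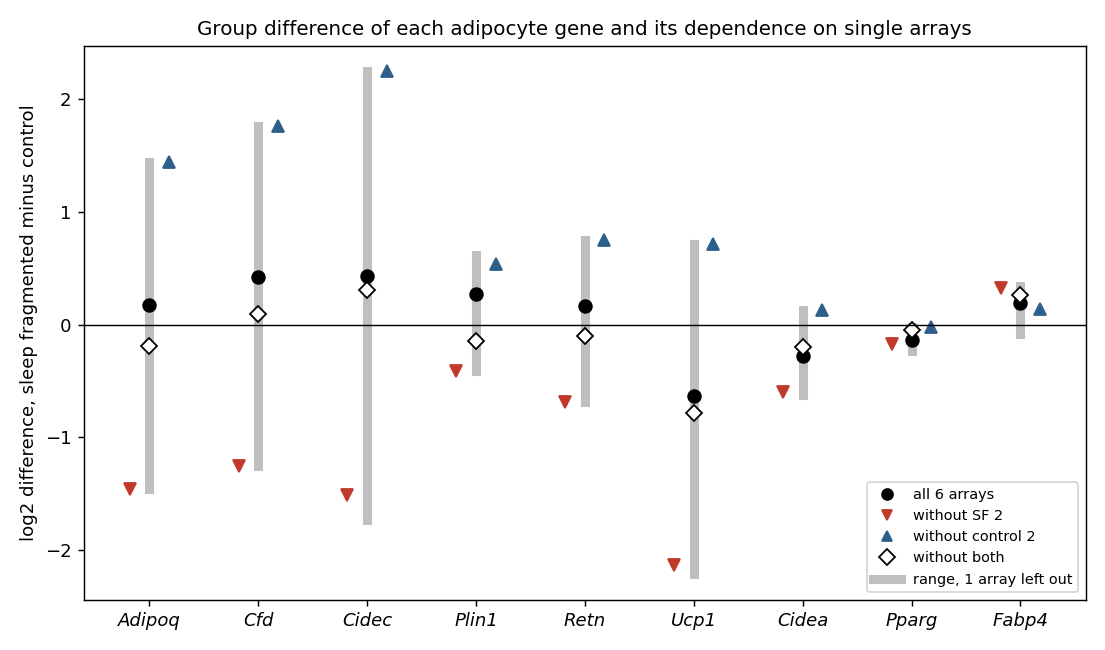
Difference of group means (log2 signal, SF minus control) for the 9 measured members with all 6 arrays (black), without SF array 2 (red), without control array 2 (blue) and without both (open diamonds), with grey bars for the range when 1 array is left out. The differences of Adipoq, Cfd, Cidec, Plin1, Retn and Ucp1 lie below 0 without SF array 2 and above 0 without control array 2, while Pparg stays within -0.23 and -0.02.

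As the plot of leave-out differences shows, leaving out 1 array could turn the sign for most members. Leaving out each of the 6 arrays in turn gave Adipoq differences between -1.46 and 1.44, Cidec differences between -1.73 and 2.25 and Ucp1 differences between -2.22 and 0.71. Pparg kept between -0.23 and -0.02.

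Other genes of fat came from a list of 29, written with earlier results of these data known, of which 28 were above background on at least 1 array and 25 passed the filter. Array 2 was highest in both groups for 8 of the 28, beside 9.77% of all kept probes. By limma, 0 were called higher or lower at an adjusted p under 0.05, 2 had an unadjusted p under 0.05, and the median difference was 0.16 (22 positive and 6 negative), against 0.08 over all tested probes. Slc7a10, an amino acid transporter of white fat, was not well above background on any array. The summed scaled signal of the list, in multiples of the array's 75th percentile, was 257 to 295 on SF arrays and 254 to 278 on controls, and was lowest on array 2 in both groups. Such a sum adds unlike probes and is set mostly by the brightest of them.

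Car3, a carbonic anhydrase abundant in fat cells, had signals of 28.6, 2901 and 124 on the SF arrays, against 26.5, 1334 and 271 on the controls. Pck1, the cytosolic phosphoenolpyruvate carboxykinase that supplies glycerol for triglyceride in fat, had 26.5, 1317 and 60.6 on the SF arrays, against 26.2, 552 and 90.2 on the controls. Adig, for adipogenin, had 31.2, 331 and 55.3 on the SF arrays, against 65.0, 341 and 88.4 on the controls. All 3 were highest on array 2 and lowest, or close to it, on array 1 in each group, and the groups overlapped. Their differences of means were 0.44 ± 1.62, 0.64 ± 1.34 and -0.19 ± 0.75 (log2, SE, n = 3 each). Without SF array 2 these became -1.27, -0.88 and -1.02, and without control array 2 they became 1.72, 1.77 and 0.50. Leaving out 1 array could thus turn the sign of each. Gpd1, which makes glycerol phosphate and is also used by muscle, had 947, 3006 and 1213 on the SF arrays, against 1474, 3003 and 1631 on the controls, with array 2 highest in both groups. After scaling, its lowest SF array was array 3 and its lowest control array 1.

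Others of the list did not share the order. Mest, a gene linked to fat mass expansion, had 111, 262 and 114 on the SF arrays, against 165, 119 and 67.7 on the controls. Nnat, for neuronatin, had 26.6, 112 and 46.5 on the SF arrays, against 52.3, 35.0 and 41.1 on the controls. Itih5 had 65.6, 312 and 138 on the SF arrays, against 167, 115 and 90.5 on the controls. At the probes shown, these 3 were highest on array 2 in the SF group alone, and control array 2 was the lowest or the middle control. A second, dimmer Nnat probe lay below its group mean on array 2 in both groups (-0.33 for SF and -0.76 for control, log2). The 2 Nnat probes thus disagreed on the SF order. Trarg1, a regulator of glucose transporter traffic in fat and muscle, was lowest on control array 2 (21.3) and highest, after scaling, on SF array 1 (34.8 before it).

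The genes that brown fat uses beside Ucp1 and Cidea came from a list of 16, of which 15 were above background on at least 1 array and 12 passed the filter. Several are also heart muscle genes. Array 2 was highest in both groups for 3 of the 15, beside 9.77% of all kept probes. The median difference was -0.01 and 0 were called by limma in either direction (1 at an unadjusted p under 0.05). Dio2, the deiodinase that activates thyroid hormone in brown fat, had 32.0, 173 and 40.6 on the SF arrays, against 48.1, 137 and 81.3 on the controls. Array 2 was highest in both groups, and after scaling the lowest SF array was array 3 and the lowest control array 1. Cox7a1, a cytochrome oxidase subunit, and Fabp3, the fatty acid binding protein of muscle, both abundant in heart, ranged by 0.88 and 1.05 (log2) over the 6 arrays. Both were highest on SF array 1 after scaling but not before it. The ranges of Lhx8, a transcription factor, Kcnk3, a potassium channel, and Ppargc1a, a regulator of mitochondrial genes, were 1.43, 1.00 and 0.87. Prdm16, a regulator of brown fat identity, had 116, 160.0 and 226 on the SF arrays, against 342, 323 and 227 on the controls. After scaling, its lowest SF array was array 2 and its lowest control array 3.

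Otop1, for a proton channel of brown fat, ran otherwise. Its signals were 177, 85.7 and 30.9 on the SF arrays, against 30.3, 42.8 and 31.7 on the controls, highest on SF array 1 with overlap at SF array 3. The difference of means was 1.57 ± 0.66 (log2, SE, n = 3 each), with a limma adjusted p of 0.949. Without SF array 1, the dimmest array, the difference was 0.71. Chosen after its values were seen, Elovl3, a fatty acid elongase of brown fat, was above background on control array 2 alone (49.4). Its signal on SF array 2 was 7.41, not well above background. Also chosen after its values were seen, Slc27a2, a fatty acid transporter, had 10.5, 89.5 and 21.8 on the SF arrays, against 24.2, 156 and 49.5 on the controls. Between the arrays numbered 2, the difference for Slc27a2 was -0.65 (log2, SF minus control). Over the 15 measured genes of the list that difference was positive for 7 and negative for 8.

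The receptors for the hormones of fat varied less between arrays than the steep members. The median range of all kept probes was 0.73 (log2), and 3 of the 6 receptor genes lay above it. Adipor1 and Adipor2, for the adiponectin receptors, ranged by 0.21 and 0.21 (log2) over the 6 arrays. Cdh13, for T-cadherin, which also binds adiponectin, ranged by 0.78 and Lepr, for the leptin receptor, by 1.15. Tlr4 and Cap1, whose proteins have been reported to bind resistin, ranged by 1.34 and 0.67. Of the 6 receptors, 0 were called by limma, and array 2 was highest in both groups for 1, Tlr4 (93.2, 223 and 190.3 on the SF arrays, against 176, 436 and 241 on the controls). Among all kept probes this share was 9.77%. After scaling, SF minus control for Tlr4 was 0.13, -0.82 and -0.32 (log2) for numbers 1, 2 and 3.

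Markers of some other tissues shared the array 2 order of the adipocyte genes, and those of others did not. Among all kept probes 9.77% had array 2 highest in both groups. Of 10 atrial genes, 10 were above background on at least 1 array and 7 were highest on array 2 in both groups. Their summed scaled signal was 36.6 to 375 on SF arrays and 19.9 to 267 on controls, with both maxima on array 2. Myl7, an atrial myosin light chain, had 17.5, 2604 and 89.9 on the SF arrays, against 26.3, 1387 and 85.2 on the controls. Sln, for sarcolipin, a calcium pump regulator of the atria, had 9.28, 12683 and 1688 on the SF arrays, against 8.98, 13003 and 1634 on the controls, with array 1 not well above background in either group. Myl4, another atrial light chain, had 119, 38717 and 4361 on the SF arrays, against 232, 31000.0 and 3400.5 on the controls. Bmp10, Tbx5 and Kcna5 of the list did not share the order. After scaling, control array 2 was the lowest control for Bmp10 (-0.95, log2 from its mean over all arrays). For Kcna5 SF array 2 was the lowest SF array (-0.12).

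Of 8 mesothelial genes, which mark the cells lining the heart's surface, 5 were highest on array 2 in both groups, and their summed scaled signal was 1.54 to 6.80 on SF arrays and 1.17 to 3.53 on controls. Upk3b of that list had 25.7, 198 and 40.2 on the SF arrays, against 32.1, 64.9 and 43.4 on the controls. Upk1b was above background on SF array 2 alone (65.7, against 17.3 on control array 2). Wt1 had 51.9, 197 and 114 on the SF arrays, against 143, 100.1 and 58.1 on the controls, and array 2 led in the SF group alone. Of 10 nerve and Schwann cell genes 4 shared the order, with sums of 10.5 to 18.1 on SF arrays and 10.5 to 11.6 on controls, and of 8 fibroblast genes 1 did (101 to 170 on SF arrays and 99.3 to 113 on controls). Of 7 macrophage genes 4 did (12.4 to 22.6 on SF arrays and 12.8 to 16.7 on controls), and of 7 endothelial genes 2 did (31.3 to 39.9 on SF arrays and 37.2 to 45.4 on controls). Of 8 ventricular muscle genes 0 did, and their sums of 670 to 1180 on SF arrays and 669 to 829 on controls were lowest on array 2 of each group. Of 4 measured lung genes 0 shared the order (0.848 to 1.32 on SF arrays and 0.61 to 1.24 on controls), and of 7 measured lymphocyte genes 1 did (2.69 to 3.96 on SF arrays and 3.19 to 4.62 on controls). Sftpa1 of lung and Rag1 of lymphocytes were not well above background on any array. These counts stand beside 9.77% of all kept probes with array 2 highest in both groups. The part of these tissues in the adipocyte values was not tested.

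The first genes of these lists show how far each followed array 2, given as log2 deviations of array 2 from the gene's mean over all arrays. Of the nerve genes, Mbp, for myelin basic protein, stood at 2.55 on SF array 2 and 1.34 on control array 2. The collagen genes Col1a1, Col1a2 and Col3a1 of fibroblasts stood at 0.61, 0.76 and 0.71 on SF array 2 and at -0.76, -0.42 and -0.42 on control array 2. Of the macrophage genes, Adgre1 stood at 0.82 on SF array 2 and 0.081 on control array 2, Csf1r at 0.63 on SF array 2 and 0.17 on control array 2, and Cd163 at -0.35 on SF array 2 and -0.53 on control array 2. The endothelial genes Pecam1, Cdh5 and Kdr stood at -0.58, 0.12 and -0.42 on SF array 2 and at 0.19, 0.040 and -0.056 on control array 2. These 3 collagen genes lay above their means on SF array 2 and below them on control array 2, whereas Adipoq stood at 3.35 on SF array 2 and 2.44 on control array 2.

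**Figure D3:**
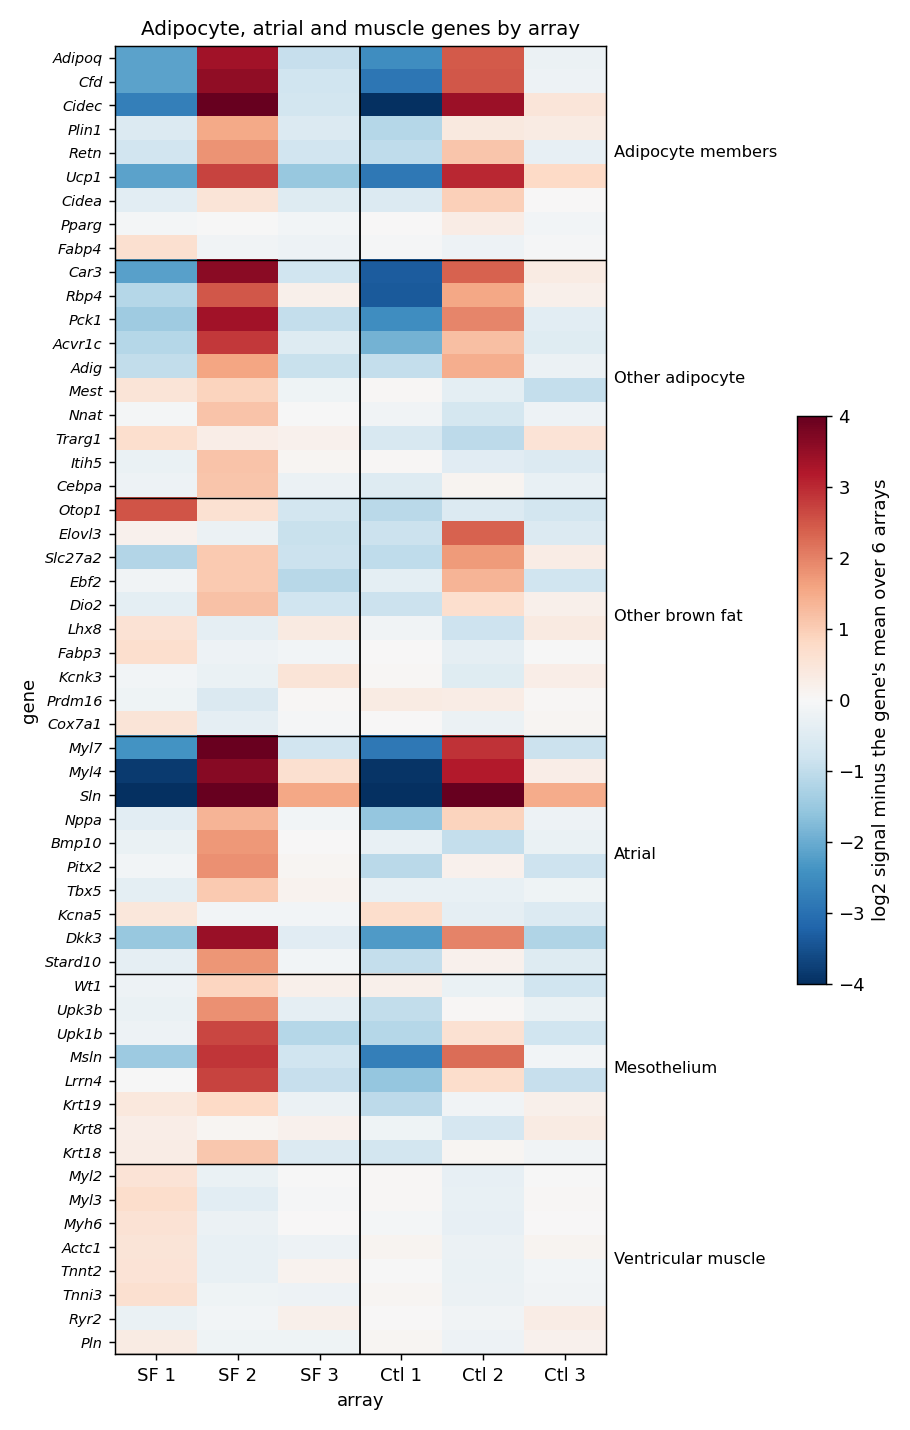
Log2 signal, scaled by the 75th percentile, minus each gene's mean over the 6 arrays (colour, with values beyond 4 in either direction shown at the end of the scale), with SF arrays 1 to 3 on the left and control arrays 1 to 3 on the right. Rows are the 9 measured adipocyte members, other adipocyte and brown fat genes with the widest ranges, and all atrial, mesothelial and ventricular muscle genes. Adipoq, Cfd, Cidec, Ucp1, Car3, Pck1, Myl7, Myl4 and Sln are red on array 2 and blue on array 1 of each group, and the ventricular muscle rows are pale.

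The map of centred values shows array 2 highest in both groups in 8 of the 9 adipocyte member rows and in 7 of the 10 atrial rows. On array 3 the atrial genes were not alike. Myl4 and Sln lay above their own means in both groups (0.64 and 1.54 on SF array 3, 0.26 and 1.48 on control array 3, log2). Myl7 lay below its mean (-0.77 on SF array 3 and -0.86 on control array 3), and so did Adipoq (-0.94 on SF array 3 and -0.23 on control array 3). Ucp1 lay below its mean on SF array 3 (-1.50) and above it on control array 3 (0.80). Whether these array 3 values differ beyond error was not tested, since each is 1 array.

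Likeness of profile was measured as the root mean square difference of centred log2 values over the 6 arrays among 13869 named genes. The nearest to the mean profile of the 5 members above background on every array were Ptgis (0.17), a prostacyclin synthase, Csrp2 (0.20), a LIM protein of smooth muscle, Dio2 (0.22), Gpx3 (0.22), a secreted glutathione peroxidase, Itga8 (0.22), an integrin, Cib2 (0.23), Pdpn (0.23), for podoplanin, Trf (0.24), for transferrin, Arl4a (0.24) and Sfxn1 (0.25). Ptgis had signals of 159, 743 and 241 on the SF arrays, against 242, 680 and 257 on the controls. Csrp2 had 279, 1938 and 438 on the SF arrays, against 486, 1199.9 and 602 on the controls. That mean includes the level genes Fabp4 and Pparg, so its peak on array 2 is shallow (1.14 for SF and 0.93 for control, log2 from its own mean).

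For Adipoq alone, a comparison added after its values were seen, the nearest were Pck1 (0.37), Rspo1 (0.41), a Wnt pathway activator, Car3 (0.43), Myl7 (0.45), Dkk3 (0.55), Hp (0.56), for haptoglobin, Cyp2e1 (0.57), Scd1 (0.67), a fatty acid desaturase, Prkar2b (0.79), a regulatory subunit of protein kinase A, and Acp5 (0.80). Among these, Pck1 and Car3 were of the adipocyte list and Myl7 and Dkk3 of the atrial list. The measure does not scale a gene's range, so only genes with a range like that of Adipoq can lie near it. Pck1, Car3, Myl7 and Dkk3 are also among the widest-ranging probes described below. No likeness between tissues is read from this order. Rspo1 had 21.9, 970 and 58.8 on the SF arrays, against 30.6, 505 and 67.5 on the controls. Hp had 31.7, 1939 and 194 on the SF arrays, against 32.1, 2128 and 348 on the controls.

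**Figure D4:**
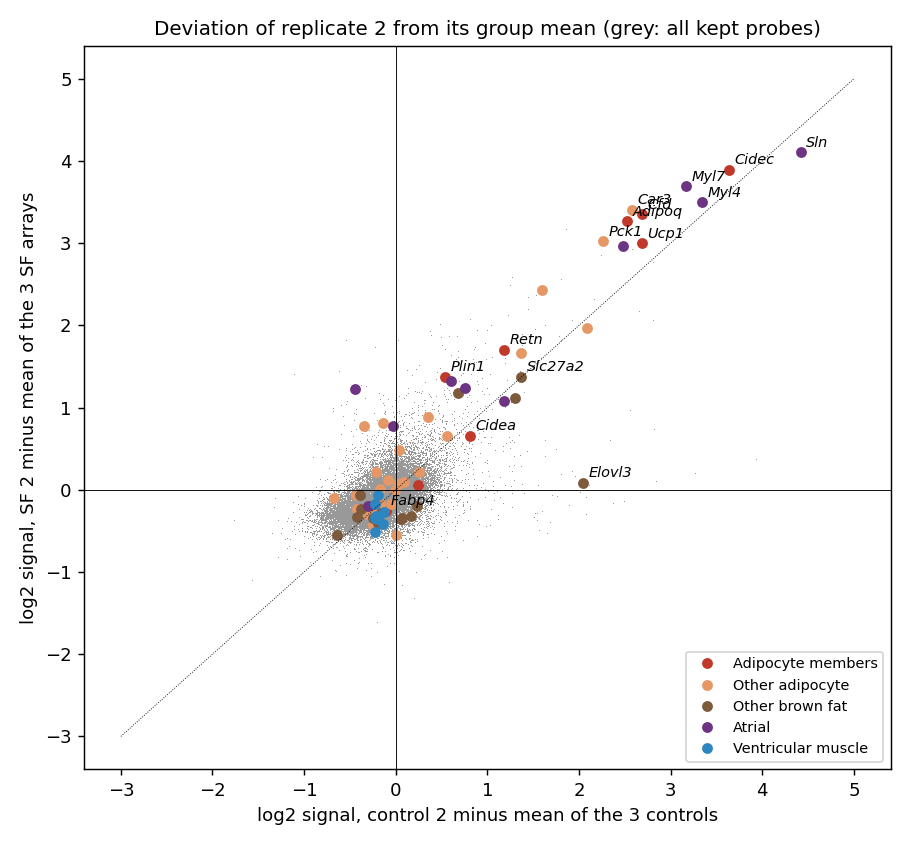
Log2 deviation of array 2 from its group's mean for SF (vertical) against control (horizontal), with 1 grey point for each kept probe and coloured points for the adipocyte members and for the other adipocyte, other brown fat, atrial and ventricular muscle lists. The dotted line marks equal deviations; Adipoq (3.27 for SF and 2.53 for control) and Cfd (3.35 for SF and 2.69 for control) lie far from the grey cloud among the atrial genes, and Fabp4 (-0.25 for SF and -0.11 for control) lies within it.

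The plot of array 2 deviations places the steep members at the edge of the whole array. Of the kept probes, 18 ranged over more than 5 log2 units across the 6 arrays, and 17 of these were named. They included 2 members (Cfd and Adipoq), 2 other adipocyte genes (Car3 and Pck1) and 3 atrial genes (Myl4, Myl7 and Dkk3). For 16 of the 18 array 2 was the highest in both groups, and for all 18 the highest SF array and the highest control array had the same number. The count does not weigh the size of the lead. Jchain stood at -0.55, -0.51 and -1.04 on SF arrays 1, 2 and 3, and at 3.97 on control array 2 (log2 from its mean). The unnamed probe stood at -0.92, -0.56 and -1.29 on the SF arrays, and at 4.86 on control array 2. For Cfd and Adipoq the lead was large in both groups. Over the 25180 kept probes the highest arrays had the same number in 36.1%. The probes were picked for a wide range and not for its order, but they share the arrays, so they are not independent readings of it.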

How the data were processed

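Total RNA of mouse heart ventricles was measured on 6 1-colour (Cy3) arrays, 3 SF and 3 control, grouped by sample title. Per the file headers, the deposited intensity values (linear spot signals after background subtraction and detrending, median spot signals and local backgrounds) came from Agilent Feature Extraction 11.0.1.1 and array design 026655. Version 10.5.1.1 is given instead in the submitters' processing notes. Deposited with them were other values, flags of 0 or 1 that mark a spot as well above background or as an outlier. The authors also deposited a log2 table of the series, with a median of 5.53 in each column and a correlation of 0.998 or more with its own array's log2 signal. Its normalisation, not given in the sources used here, is unknown, and it served as an alternative. Its log2 scale carries no centring by gene.

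From the intensities, log2 values were taken, control spots and outlier spots (180 to 240 per array) were left out, spots of 1 probe were averaged, and each array's 75th percentile was subtracted. Probes were named by unversioned RefSeq accession through a GRCm38.p6 gene table, which named 27234 of 39429 probes and left 12195 unnamed. The array was designed on another annotation, and no probe positions are given. A probe was kept if each array of 1 group or of both read it well above background (25229 probes, 1 of them with too few values to test), and the brightest kept probe stood for a gene. Folds against an array not well above background are bounds: there the higher of the probe's own signal and the lowest signal well above background was used.

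limma 3.58.1 (lmFit and eBayes, R 4.3.3) compared the groups over all kept probes, two-sided, with Benjamini-Hochberg adjustment at 0.05. Members that failed the filter take their standard error from the fit without it. The fit was tested on simulated data. Tables were made with Python 3.11.15 (pandas 2.3.3, numpy 2.4.6). With 3 arrays per group, the number of arrays limits the precision.

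The members and all gene lists were chosen with earlier results of these data known. Besides the members, the rule for named genes took up to 8 kept genes of widest range from the adipocyte, brown fat and receptor lists, the first 3 measured of each other list, and the 10 nearest profiles. Those of the lung and lymphocyte lists are given by the list's values alone, and some results for single genes are not reported here. Genes that a count of the text singles out beyond this were chosen after their values were seen. They are Slc7a10, Elovl3, Slc27a2, Dkk3, Bmp10, Tbx5, Kcna5, Sftpa1, Rag1, Jchain, the unnamed probe of wide range and those nearest to Adipoq. Alternatives were other scalings, normexp, filters, array weights, another prior, a replicate block and leaving out arrays. The files lack mean spot signals, so normexp (offset 50) used median spot signals.

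Whether equal sample numbers pair the arrays was checked by correlating deviations from the group means. The correlations were 0.0632, 0.554 and 0.214 for numbers 1, 2 and 3. These values do not settle the question, so the main fit took no pairs and the replicate block served as an alternative.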

Additional observations from a re-analysis of the deposited data

How the results depend on the processing

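The count of 0 called probes held under quantile normalization, median scaling, the authors' deposited table, every filter tried, the trended and robust prior and each single array left out (0 to 0). It was 69 with no scaling, 3 with normexp, 111 with array weights (a fit that stopped short of its convergence tolerance) and 5 without both replicate 2 arrays, an alternative chosen after seeing the data. With the replicate block it was 4. Whether the numbers pair the arrays was not settled. SF array 1 correlated best with control array 3 (0.36), but SF array 2 with control array 2 (0.554). Counts at an unadjusted limma p under 0.05 were 428 without SF array 1, 451 without control array 1, 1174 without SF array 2 and 2972 without control array 3, 1982 under the replicate block and 6484 with array weights, against 685.

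The median difference of the other adipocyte genes, 0.16, became -0.048 under median scaling and -0.24 with no scaling. That of the other brown fat genes, -0.01, became -0.22 and -0.42. The median of all tested probes moved with the scaling, from 0.08 to 0.0023 with quantile normalization, -0.13 with median scaling and -0.32 with no scaling, so these list medians are read against that shift. The members' median, 0.18, ran from -0.69 (without SF array 2) to 0.71 (without control array 2) and was 0.88 with array weights, -0.031 under median scaling and -0.23 with no scaling. The difference of Pparg was -0.14, and -0.54 with no scaling. The causes of these changes in counts were not tested.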
